A study of Oncorhynchus mykiss with 18 samples.

Results

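H3K4me3 ChIP-seq of 2 rainbow trout testes was compared genome-wide: TAC-1, which carries the *Prdm9* genotype 1/5, and TAC-3, which carries 2/6. These individuals have no *Prdm9* allele in common, are both of the INRA-AUT strain and had testes at maturation stage III. Frozen testis tissue was crosslinked with formaldehyde, and the same antibody (Abcam, ab8580) was used on 2 replicates per individual. The series also holds H3K36me3 ChIP-seq of both testes, DMC1-SSDS (sequencing of the single-stranded DNA bound by the recombinase DMC1) of both and of RT-52 (*Prdm9* 1/2), and input libraries. Each individual and mark has 1 peak list that combines both replicates. All peaks of the H3K4me3 lists were used: 153665 of TAC-1, and of TAC-3 49273 on assembled chromosomes and 1275 on unplaced scaffolds, or 204213 of the 409541 peaks in the 7 lists of the series.

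H3K4me3 is the trimethylation of lysine 4 of histone H3. In vertebrates it marks the promoters of genes, whether or not they are strongly transcribed, and in meiotic germ cells it is also placed away from promoters by PRDM9. PRDM9 binds DNA through a zinc finger array whose sequence preference depends on the allele, and methylates histone H3 at lysine 4 and lysine 36 around the bound site, where DNA double-strand breaks (DSBs) can then form. A testis list may therefore hold promoter peaks, which do not depend on the *Prdm9* allele, along with sites that do.

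With 1 list per individual there is no value per replicate, and no comparison below has a test. The 95% intervals are Wilson intervals over peaks (for medians, intervals from order statistics). They cover counting error only, because neighbouring peaks of a list are not independent and are not replicates. One individual stands for each genotype, so the effect of the genotype and that of the individual cannot be told apart. A testis holds several cell types, and fewer cells carrying the mark cannot be told apart from less of the mark per cell. Peaks were called against input, of which the series holds 1 library of TAC-1 and 2 of TAC-3. The part of the input in the length of the lists was not tested. Read depth is not part of the peak lists. The study's library list gives fewer mapped reads for TAC-3 than for TAC-1, and the part of depth in the length of the lists was not tested. For this reason most comparisons are also given with a TAC-1 list matched in length, made of as many TAC-1 peaks of highest score as the TAC-3 list holds (32.9% of the list, scores of 362 or more). A score is the authors' mean MACS2 score of the merged peaks. It was used to rank peaks within a list, never between lists.

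The TAC-1 list was longer, at 3.04 times the number of TAC-3 peaks. On the 32 assembled chromosomes, 151034 TAC-1 peaks (67.7 per Mb) and 49273 TAC-3 peaks (22.1 per Mb) were found. The TAC-1 peaks covered 105 Mb, or 4.71% of the chromosome length, and the TAC-3 peaks 44.1 Mb, or 1.98%. The ratio of covered length (2.38) was smaller than that of peak number, and TAC-1 peaks were narrower. Another 2631 TAC-1 peaks lay on scaffolds. The matched TAC-1 list covered 2.22% of the chromosomes, close to the TAC-3 list.

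Of the TAC-1 peaks, 36752 shared at least 1 bp with a TAC-3 peak (23.9%, 95% interval 23.7% to 24.1%). Of the TAC-3 peaks, 36644 did so with a TAC-1 peak (72.5%, 72.1% to 72.9%). These are called shared below, and the others private. Most private peaks were therefore of TAC-1, with 116913 against 13904 of TAC-3. When overlapping peaks were joined, the lists together held 167192 loci, of which 36377 (21.8%) had a peak in both testes, 116912 (69.9%) in TAC-1 only and 13903 (8.32%) in TAC-3 only. For scale, TAC-3 peaks covered 1.98% of chromosome length and TAC-1 peaks 4.71%. These are not the shares that an even spread would give. A peak has a width and meets another by 1 bp more often than a single point would. The share under an even spread was not computed.

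At matched length the shares were almost equal, as nearly one-to-one overlaps between lists of the same length impose: 25485 TAC-1 peaks (50.4%, 50% to 50.9%) and 25574 TAC-3 peaks (50.6%, 50.2% to 51.0%). Thus 11070 TAC-3 peaks (21.9%) were shared only through TAC-1 peaks of lower score. Of the TAC-1 peaks outside the matched list, 10.9% met a TAC-3 peak. In bases, 27.1 Mb lay in peaks of both lists, which is 25.8% of the TAC-1 and 61.5% of the TAC-3 peak length on chromosomes. Of the bases in either list, 22.2% were in both with the whole TAC-1 list and 30.3% with the matched one.

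Shared peaks mostly paired one-to-one and lay close together. Only 249 TAC-1 peaks met more than 1 TAC-3 peak, and 361 TAC-3 peaks met more than 1 TAC-1 peak. In the 35768 one-to-one pairs, the midpoints were a median of 117 bp apart, and 87.3% of pairs overlapped by at least 25% of both peaks. Their widths were alike, with a median of 893 bp in TAC-1 against 879 bp in TAC-3, and the TAC-1 peak was the wider in 52.5% of pairs. Across pairs, Spearman's rho was 0.50 for the scores and 0.55 for the widths. Pairs are not independent of each other, and mappability, base composition and gene content are common to both libraries at each pair.

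The peaks of highest score in one testis were mostly present in the other. To show this, each list was split by score into 10 classes of equal size. In class 1, the highest, 78.2% of TAC-1 and 98.5% of TAC-3 peaks were shared. From there the lists parted. In TAC-1 the share was 49.3% in class 2, 16.4% in class 5 and 4.76% in class 10, so that the weakest TAC-1 peaks met few TAC-3 peaks. In TAC-3 it was 94.9% in class 2 and 65.3% in class 5, and then stayed between 62.2% and 62.9% from class 6 to class 10. Against the matched TAC-1 list, the TAC-3 shares continued to decline, to 41.8% in class 5 and 28.2% in class 10. The flat part of the TAC-3 curve was thus present only with the TAC-1 peaks of lower score. Among the matched TAC-1 peaks, the shares were 86.5% in class 1 and 23.9% in class 10.

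**Figure D1:**
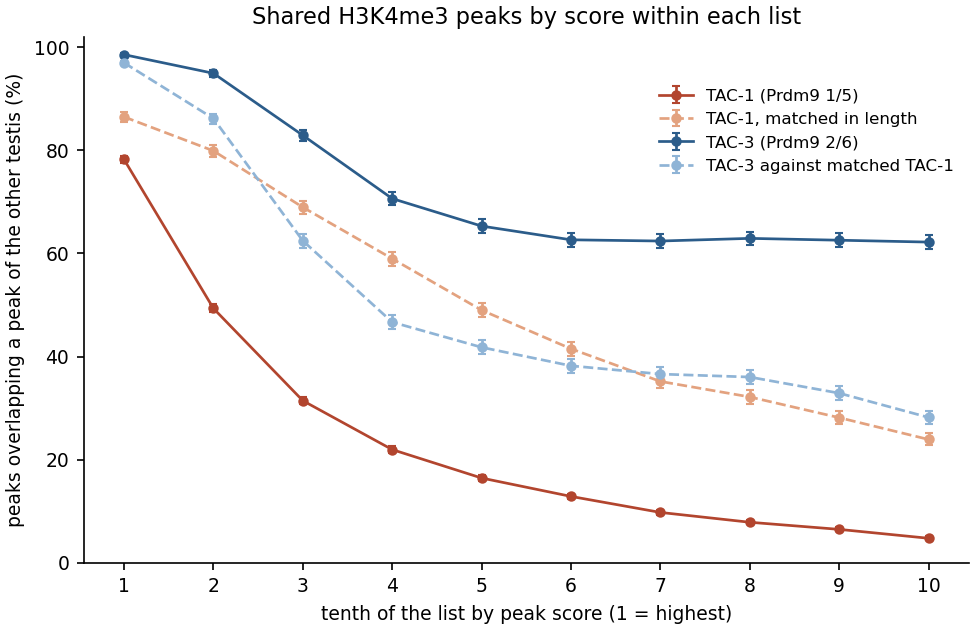
Percentage of H3K4me3 peaks that overlap a peak of the other testis (y axis) in 10 classes of equal size by score within each list (x axis, 1 is the highest), with 95% Wilson intervals over peaks. Whole lists are solid lines and comparisons with the matched TAC-1 list dashed lines. The TAC-3 curve stays between 62.2% and 62.9% from class 6 to class 10, whereas that of TAC-1 declines to 4.76%.

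Presence in both lists did not mean a high score in both. Of the 1000 TAC-1 peaks of highest score, 90.4% met some TAC-3 peak, but 37.8% met one of the 1000 highest TAC-3 peaks. Of the 1000 TAC-3 peaks of highest score, 99.1% met some TAC-1 peak and 37.8% one of the 1000 highest. Among the 10000 highest peaks of each list, 49.6% met each other in both directions.

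The highest peak of both lists was the same site. It lay on chromosome 7 from 7575516 to 7575860 in TAC-1 (score 72767) and from 7575521 to 7575852 in TAC-3 (score 31583), 5254 bp (TAC-1) and 5262 bp (TAC-3) from the rRNA gene *LOC118965425*. Positions are those of the USDA_OmykA_1.1 assembly. The next sites by mean rank in both lists, on assembled chromosomes, were of several kinds. One was on chromosome 16 from 66658988 to 66659916 in TAC-1 (rank 2) and from 66658986 to 66660155 in TAC-3 (rank 12), over one boundary of *otud5a*, whose mammalian product is a deubiquitinase. Another lay inside the protein-coding gene *LOC118936489* on chromosome 1, from 8734514 to 8734761 in TAC-1 (rank 39) and from 8734416 to 8734832 in TAC-3 (rank 11), about 13 kb from the nearest boundary. A site at one boundary of the protein-coding gene *LOC110514470* on chromosome 16 ranked 26 in TAC-1 (76773737 to 76774833) and 17 in TAC-3 (76773793 to 76774844). The last was on chromosome Y, from 5879415 to 5880656 in TAC-1 (rank 54) and from 5879015 to 5881213 in TAC-3 (rank 8), 4146 bp (TAC-1) and 3746 bp (TAC-3) from the snRNA gene *LOC118945461*.

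On assembled chromosomes, the 5 private TAC-1 peaks of highest score ranked between 16 and 84 in their list, and the 5 of TAC-3 between 218 and 706. A TAC-3 peak had the longer list to meet, so that these ranks were not compared. In TAC-1 the first was on chromosome 2 from 14333942 to 14334335 (score 25283, rank 16), inside *LOC110533643* and with its midpoint 875 bp from the nearest boundary of that gene. The nearest TAC-3 peak was 10182 bp away. The second was on chromosome 5 from 72226587 to 72227639 (rank 37), near one boundary of *myoc*, which encodes myocilin. The third lay inside *LOC110538585* on chromosome 12 from 80775453 to 80776318 (rank 38). The fourth, on chromosome 9 from 541494 to 541917 (rank 55), was 2454 bp from *psmb6*, which encodes a subunit of the proteasome. The fifth was inside *si:dkey-225n22.4* on chromosome 15 from 22944140 to 22946362 (rank 84). Each of these 5 peaks overlapped an H3K36me3 peak of TAC-1, as did 74.5% of all private TAC-1 peaks, and none overlapped a DMC1 hotspot, which 0.171% of private TAC-1 peaks did for hotspots of TAC-1.

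None of the 5 private TAC-3 peaks of highest score overlapped an H3K36me3 peak of TAC-3, which 21.7% of all private TAC-3 peaks did. None overlapped a DMC1 hotspot, which few private TAC-3 peaks did (0.288% for hotspots of TAC-3 and 2.35% for those of RT-52). Of the 5, 3 lay within 1 kb of a gene boundary, against 35.2% of all private TAC-3 peaks on chromosomes. The first was on chromosome 17 from 1219663 to 1220718 (score 3241, rank 218), at one boundary of *LOC110494868*, with the nearest TAC-1 peak 2561 bp away. The second was on chromosome 13 from 2914980 to 2915326 (rank 286), 1530 bp from *LOC118938416*. The third, at one boundary of *LOC110525366*, was on chromosome 6 from 18044189 to 18045301 (rank 666). The fourth, on chromosome 2 from 12953057 to 12953811 (rank 687), was 18523 bp from *pabpc1a*, which encodes a poly(A)-binding protein. The fifth was at one boundary of *LOC110499361* on chromosome 20 from 33577146 to 33578228 (rank 706). The distance to the nearest peak of the other testis had a median of 15.8 kb for private TAC-1 peaks and 4.73 kb for private TAC-3 peaks. At matched length these medians were 15.5 kb and 13.9 kb, so that most of the difference between them was present only with the longer TAC-1 list.

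Shared peaks were wider than private ones in both testes. In TAC-1 the median width was 367 bp (364 to 370) over all peaks, 892.5 bp (883 to 902) over shared and 303 bp (301 to 305) over private peaks. In TAC-3 it was 757 bp (750 to 765) over all peaks, 886 bp (878 to 896) over shared and 395 bp (385 to 405) over private peaks. Shared peaks thus had nearly the same median width in both lists, and the difference between the whole lists (a ratio of 0.48) went with the many narrow private TAC-1 peaks. Peaks under 300 bp made up 49.4% of the private and 17.3% of the shared TAC-1 peaks, against 40.9% of the private and 18.9% of the shared TAC-3 peaks. At matched length the TAC-1 median was 743 bp (733 to 751), close to the 757 bp of TAC-3, and the shared TAC-1 peaks (1011 bp) were still wider than the private ones (459 bp). A wide peak has more room to meet another, and the part of width in sharing was not tested.

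In the whole lists, wider peaks were shared more often. Of peaks 100 to 200 bp wide, 9.44% were shared in TAC-1 and 52.1% in TAC-3. Of peaks 1000 to 1500 bp wide, 44.2% were shared in TAC-1 against 83.7% in TAC-3, and of those of 3000 bp or more, 60.1% in TAC-1 and 93.8% in TAC-3. At matched length these differences between the testes were smaller or turned: 32.2% of TAC-1 and 24.6% of TAC-3 peaks of 100 to 200 bp were shared, 65.1% of TAC-1 and 66.5% of TAC-3 peaks of 1000 to 1500 bp, and 76.0% of TAC-1 and 78.2% of TAC-3 peaks of 3000 bp or more. The matched TAC-1 list also broke the increase with width, since 24.1% of its peaks of 200 to 300 bp were shared. Peaks over 2000 bp wide made up 6.36% of the whole TAC-1 list, 11.5% of the matched one and 7.13% of the TAC-3 list. The authors merged narrow peaks within 1 kb of each other, so a wide peak can be several narrow ones joined. The widest on a chromosome was a shared site in both testes: in TAC-1 24205 bp on chromosome 18 from 72463881 to 72488085 (score rank 8958), with *csmd1a* as the nearest gene, 227128 bp away, and in TAC-3 15908 bp on chromosome 11 from 2574263 to 2590170 (score rank 26013), 43289 bp from *plod2*, a lysyl hydroxylase of collagen in mammals.

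**Figure D2:**
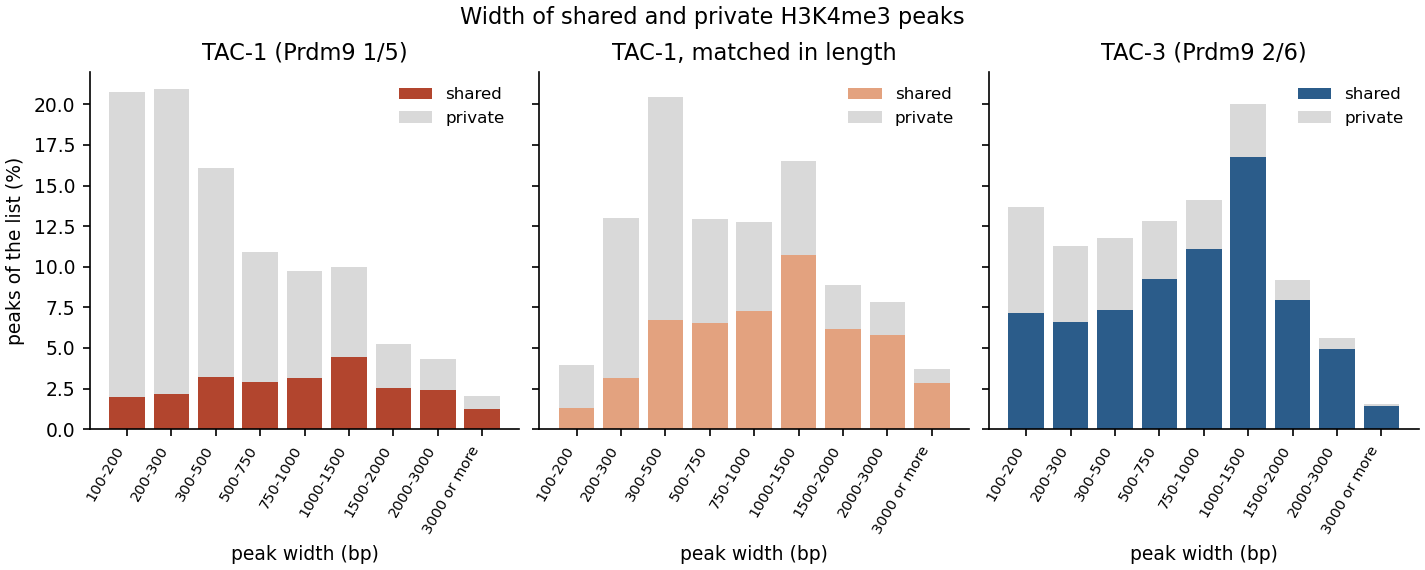
Percentage of the peaks of each list (y axis) by peak width in bp (x axis), with shared peaks coloured and private peaks in grey, for TAC-1, for TAC-1 matched in length and for TAC-3. The bars span unequal ranges of width, so their heights do not show which widths are most frequent. Private peaks fill most of the bars under 300 bp in TAC-1, where 41.7% of its peaks lie. In TAC-3 the highest bar is that of 1000 to 1500 bp (10122 peaks, mostly shared). It spans a wider range than the TAC-3 bars of 100 to 200 bp (6916 peaks) and 200 to 300 bp (5699 peaks).

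Every chromosome had peaks of both testes, at densities that differed little between chromosomes. The TAC-1 density was lowest on chromosome 15 (60.5 peaks per Mb) and highest on chromosome 16 (73.7). The TAC-3 density was lowest on chromosome 26 (18.3) and highest on chromosome 28 (25.1). The ratio of TAC-1 to TAC-3 peaks was lowest on chromosome 13 (2.51), which has the highest density of protein-coding genes (26.9 per Mb), and highest on chromosome 24 (3.53). At matched length this ratio ranged from 0.91 (chromosome 30) to 1.12 (chromosome 24). The share of TAC-1 peaks found in TAC-3 ranged from 20.1% (chromosome 22) to 28.3% (chromosome 13), and that of TAC-3 peaks found in TAC-1 from 67.2% (chromosome 26) to 77.2% (chromosome Y). At matched length the order varied between chromosomes: TAC-1 had more peaks than TAC-3 on 18 of 32, and the higher share of shared peaks on 12 of 32. The second count is largely set by the first, since nearly one-to-one overlaps give the list with more peaks the lower share.

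Across the 32 chromosomes, the TAC-3 density went with that of protein-coding genes (Pearson's r 0.70, Spearman's rho 0.74), and so did that of the matched TAC-1 list (r 0.67, rho 0.72). For the whole TAC-1 list the relation was weaker (r 0.13, rho 0.27), and for its private peaks it was near 0 or below (r −0.15, rho 0.07). Private TAC-3 peaks, classed against the whole TAC-1 list, did follow gene density (r 0.69, rho 0.60). For private peaks at matched length this relation was not computed, so the part of list length in the contrast is not known. The points of each correlation come from the same 2 lists and the same assembly, and are given as a description.

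**Figure D3:**
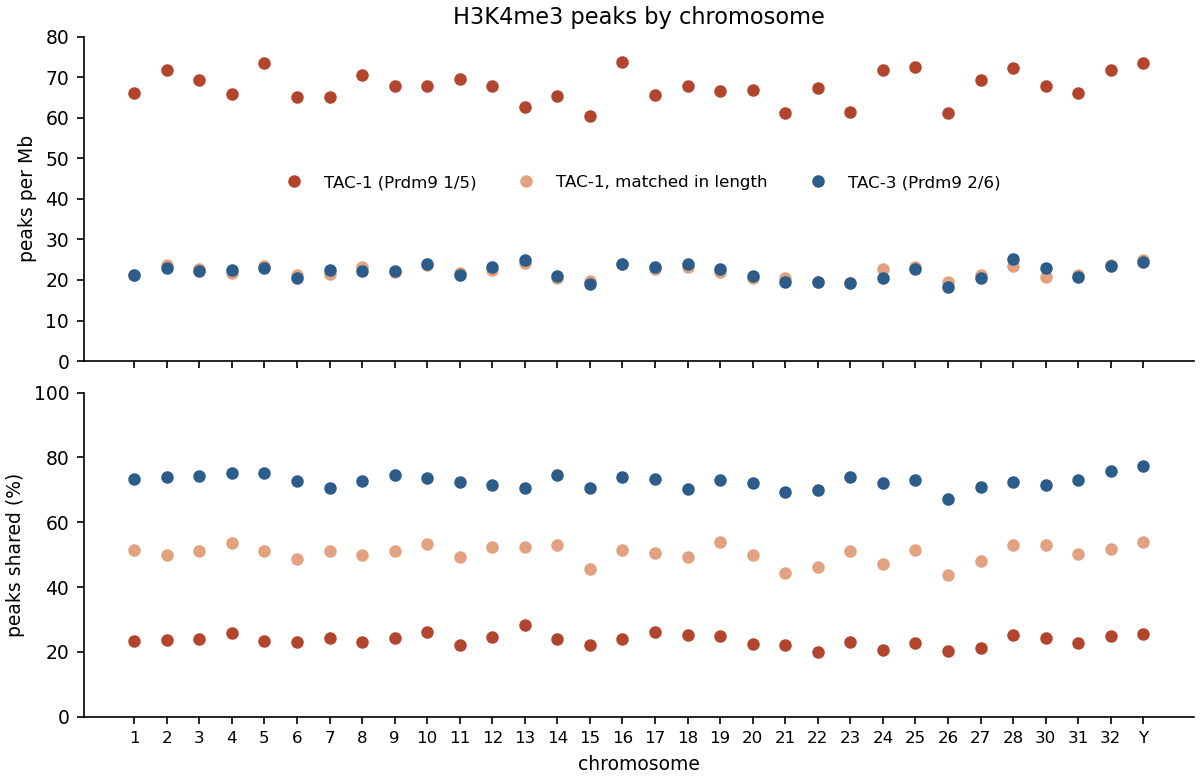
H3K4me3 peaks per Mb (upper panel) and the percentage of peaks shared with the other testis (lower panel) on each of the 32 chromosomes (x axis), for TAC-1, for TAC-1 matched in length and for TAC-3. Each point is 1 chromosome of 1 list. TAC-1 lies between 60.5 and 73.7 peaks per Mb and TAC-3 between 18.3 and 25.1, while the matched TAC-1 list falls on the TAC-3 points.

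Along chromosomes, both lists were somewhat thinner towards the ends. The outer 10% at each end, 20% of the length, held 16.7% of TAC-1 peaks (16.5% to 16.9%) and 16.8% of TAC-3 peaks (16.4% to 17.1%), or 0.84 times the share of length in both testes. Protein-coding genes gave 0.78. Single chromosomes spread around this ratio. In TAC-1 the lowest was 0.63 (chromosome 13) and the highest 1.01 (chromosome 32), with 2 of 32 chromosomes above 1, and in TAC-3 the lowest was 0.59 (chromosome 23) and the highest 1.1 (chromosome 4), with 6 above 1. Shared peaks were thinner at the ends (0.77 in TAC-1 and 0.78 in TAC-3) than private ones (0.86 in TAC-1 and 1.00 in TAC-3). The values of shared peaks are close between the lists because these are nearly the same sites. At matched length private TAC-1 peaks reached 0.99, and private TAC-3 peaks defined against the matched list 0.89. Hence in each comparison the private peaks were spread more evenly than the shared ones.

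The share of peaks found in the other testis varied accordingly. In the outermost 5% of chromosomes 23.0% of TAC-1 and 67.8% of TAC-3 peaks were shared, against 24.9% of TAC-1 and 76.4% of TAC-3 peaks in the innermost part, from 40% to 50% of the length counted from the nearer end. For the matched TAC-1 list the values were 46.1% at the ends and 54.0% in the middle, and for TAC-3 against it 48.1% and 52.4%. The lowest share was not in the outermost 5% but from 5% to 10% of the length. There it was 21.0% in TAC-1, 67.0% in TAC-3, 42.8% in the matched TAC-1 list and 46.8% in TAC-3 against it. The median width was 392 bp in the outermost 5% and 369 bp in the middle for all TAC-1 peaks, 696 bp and 776.5 bp for the matched list, and 596 bp and 779 bp for TAC-3.

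**Figure D4:**
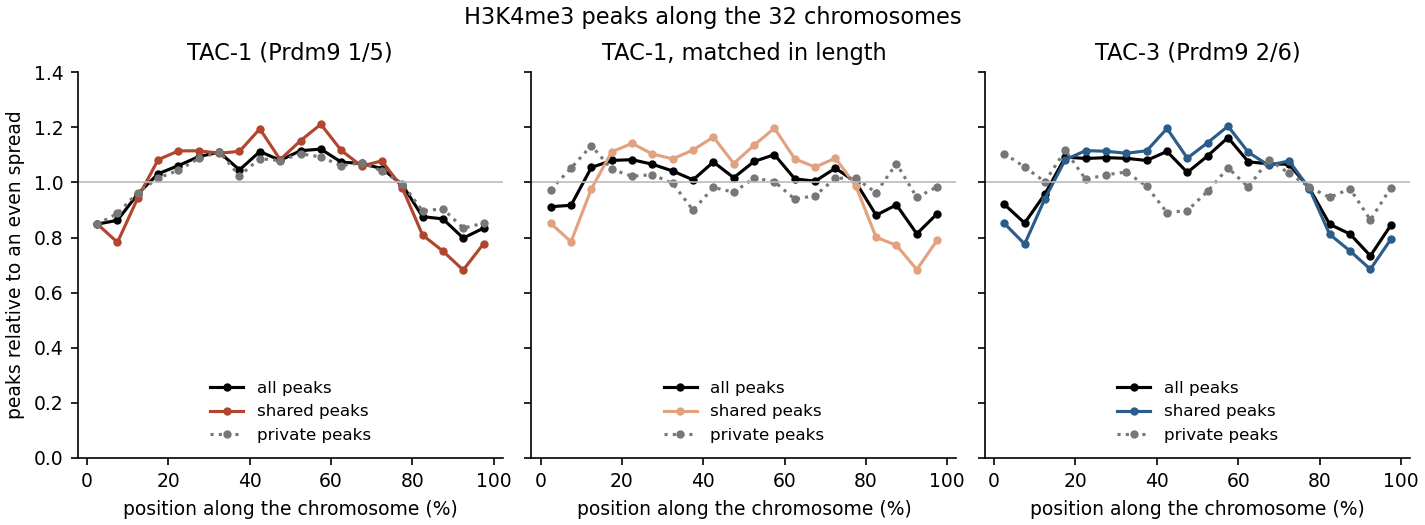
Density of H3K4me3 peaks in 20 bins along the 32 chromosomes (x axis, percent of the length), relative to an even spread (y axis, 1 is even), for all, shared and private peaks of TAC-1, of TAC-1 matched in length and of TAC-3. Shared peaks dip at both ends, where the outer 10% at each end held 0.77 times the even share of TAC-1 peaks and 0.78 times that of TAC-3 peaks, while private TAC-3 peaks stay near 1.

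In windows of 1 Mb, every window held peaks of both lists. Over 2215 windows, the count had a median of 68 in TAC-1 (16 to 128) and 21 in TAC-3 (2 to 78). The counts of the matched TAC-1 list went with those of TAC-3 (r 0.75, rho 0.74), whereas the counts of private peaks hardly did (r 0.13, rho 0.12 at matched length). Shared sites, 50.4% of matched TAC-1 and 50.6% of TAC-3 peaks, count in both lists for the first values and are absent from the second. The contrast is thus in part set by how the classes were defined. With the number of protein-coding genes, r was 0.44 for all TAC-1 peaks, 0.56 for the matched list and 0.64 for all TAC-3 peaks (rho 0.45, 0.55 and 0.63 in this order). For private peaks of the whole lists it was 0.25 in TAC-1 and 0.45 in TAC-3 (rho 0.28 and 0.44), and at matched length it was not computed. Windows share gene content and mappability between the lists, so these values describe the lists.

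Some windows stood apart. The window of chromosome 10 from 63000001 to 64000000 had 124 TAC-1 and 78 TAC-3 peaks, the highest TAC-3 count, and 42 protein-coding genes. On chromosome Y, the window from 6000001 to 7000000 had 118 TAC-1 and 75 TAC-3 peaks with 10 protein-coding genes. The highest TAC-1 count, 128, was on chromosome 13 from 20000001 to 21000000, where TAC-3 had 40. At matched length the largest excess of TAC-1 was on chromosome 2 from 5000001 to 6000000, with 61 TAC-1 and 35 TAC-3 peaks, followed by chromosome 2 from 11000001 to 12000000, with 44 TAC-1 and 20 TAC-3 peaks. The largest excess of TAC-3 was on chromosome 7 from 16000001 to 17000000, with 29 matched TAC-1 and 53 TAC-3 peaks. On chromosome 13 from 2000001 to 3000000, even the whole TAC-1 list had fewer peaks (47) than TAC-3 (48).

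The testes differed in where their private peaks lay with respect to genes. The RefSeq gene table gives both boundaries of a gene but no strand, so a peak within 1 kb of either boundary was counted, and starts and ends of genes are pooled. Such stretches make up 7.74% of the chromosomes. They held 18.8% of TAC-1 peaks (18.6% to 19.0%), 33.6% of matched TAC-1 peaks (33.1% to 34.0%) and 47.7% of TAC-3 peaks (47.2% to 48.1%). Shared peaks are nearly the same sites in both lists, which imposes close shares at a boundary: 52.0% in TAC-1 and 52.3% in TAC-3. Among private peaks it was 8.40% in TAC-1 (8.24% to 8.56%), near the share of length, against 35.2% in TAC-3 (34.4% to 36%). At matched length these shares were 10.0% in TAC-1 and 38.4% in TAC-3. Inside genes and away from their boundaries lay 57.8% of private TAC-1 peaks, compared with 35.7% of private TAC-3 peaks. The share of chromosome length inside genes was not measured, so neither value can be set against an even spread.

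Seen from the peaks, 67.9% of TAC-1 peaks at a boundary of a protein-coding gene were shared, but 10.5% of those inside genes and 19.6% of those outside. In TAC-3 the shares were 80.5% at protein-coding boundaries, 61.2% inside genes and 70.9% outside. At matched length the order of the testes at protein-coding boundaries turned, with 86.3% of TAC-1 (13622 of 15789) and 61.1% of TAC-3 peaks (13687 of 22401) shared. The shared counts were close, as nearly one-to-one overlaps impose. The order was thus set by how many peaks each list had there. Inside genes 25.7% of TAC-1 and 38.0% of TAC-3 peaks were shared, and outside 42.4% of TAC-1 and 45.6% of TAC-3 peaks. In both lists the peaks away from boundaries were weak within their own list. Median TAC-3 scores were 143 inside and 125 outside genes against 480 at protein-coding boundaries. In TAC-1 they were 224 inside and 231 outside genes against 469.5.

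Of the 40693 protein-coding genes on chromosomes, 62.8% had a TAC-1 peak within 1 kb of a boundary and 59.4% a TAC-3 peak. With the matched TAC-1 list it was 42.8%. Hence TAC-3 marked nearly as many genes as TAC-1 with fewer peaks. Both testes marked 50.7% of genes, TAC-1 alone 12.1% (4926 genes) and TAC-3 alone 8.71% (3546 genes), and 28.5% had a peak in neither. Against the matched list, 20.3% of genes (8247) had a peak in TAC-3 only and 3.60% (1465) in TAC-1 only. For lncRNA genes the shares were 35.5% in TAC-1 against 29.2% in TAC-3, and for snoRNA genes, many of which lie inside other genes, 36.5% in TAC-1 and 26.1% in TAC-3. Of the 5441 tRNA genes, few had a peak, 206 in TAC-1 (3.79%) against 275 in TAC-3 (5.05%). They were thus the only class, among protein-coding, lncRNA, tRNA, rRNA, snRNA and snoRNA genes, in which TAC-3 exceeded the whole TAC-1 list. Neighbouring tRNA genes can have 1 peak between them: the genes were reached by 166 TAC-1 and 188 TAC-3 peaks. Many of these peaks were also at a boundary of a protein-coding gene, and 84 TAC-1 and 100 TAC-3 peaks were not.

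Genes of meiosis and of the germ line were checked as markers of the tissue. A peak at a gene is not a measure of its expression. Of 32 meiotic prophase genes looked for, 16 were found by name, and all 16 had a peak at a boundary in both TAC-1 and TAC-3. Of all protein-coding genes, 62.8% had one in TAC-1, 59.4% in TAC-3 and 50.7% in both. With the matched TAC-1 list 14 of 16 had one, against 42.8% of all protein-coding genes. The genes without one there were *rec114*, needed for DSB formation in mice, and *syce2*, a part of the synaptonemal complex in mammals. Ranks are given as a percentage of each list, and since the lists differ in length no order between the testes was read from them. The best ranked in TAC-1 was *smc1b*, the meiotic cohesin subunit (highest 0.13% of the list in TAC-1 against 4.32% in TAC-3), and in TAC-3 *mei4*, which acts in DSB formation in mice (0.66% in TAC-1 and 2.52% in TAC-3). The meiotic recombinase *dmc1* was in the highest 5.50% in TAC-1 and 5.02% in TAC-3. The topoisomerase relative *spo11*, which makes the DSBs, was in the highest 10.7% in TAC-1 and 28.4% in TAC-3. *Sycp1*, of the synaptonemal complex, was in the highest 1.19% in TAC-1 and 11.5% in TAC-3. Of the chromosome axis, *sycp3* was in the highest 16.1% in TAC-1 and 10.3% in TAC-3, whereas *hormad1* was at 32.1% in TAC-1 and 17.8% in TAC-3. The weakest of the list in TAC-3 was *syce3* (68.7%, against 17.6% in TAC-1). Over the list the median was 15.9% in TAC-1 and 19.5% in TAC-3, to be read within each list. For scale, all peaks at protein-coding boundaries had a median score of 469.5 in TAC-1 and 480 in TAC-3. Both lie in class 3 of the 10 score classes of their list. These medians are over peaks, not over genes.

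Of 11 germ cell genes, 10 had a peak in TAC-1, 9 in the matched TAC-1 list and 9 in TAC-3. Among all protein-coding genes it was 62.8% in TAC-1, 42.8% in the matched TAC-1 list and 59.4% in TAC-3. *Dnd1*, required for germ cell survival in fish, had one in TAC-1 only (width 1166 bp), and *tdrd9*, of the piRNA pathway, in neither. *Ddx4*, *dazl*, *piwil1*, *piwil2*, *tdrd1*, *tdrd6*, *nanos2*, *henmt1* and *asz1* had one in both. Among them *nanos2*, a regulator of spermatogonial stem cells in mice, was in the highest 4.40% in TAC-1 against 34.5% in TAC-3, and *piwil1*, a piRNA-binding protein, in the highest 23.6% in TAC-1 and 11% in TAC-3.

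The remaining lists are short. Their counts stand beside 62.8% of all protein-coding genes for TAC-1, 42.8% for the matched TAC-1 list and 59.4% for TAC-3. Of 9 testis somatic genes, 6 had a peak in TAC-1, 3 in the matched TAC-1 list and 4 in TAC-3. *Dmrt1*, also expressed in germ cells, was in the highest 0.62% in TAC-1 against 3.14% in TAC-3, and *cyp17a1*, an enzyme of steroid synthesis, in the highest 4.37% in TAC-1 and 0.65% in TAC-3. *Lhcgr* and *insl3* also had peaks in both testes, but not in the matched TAC-1 list. Most of these peaks ranked low: *lhcgr* at 72.9% of the TAC-1 list and 94.9% of the TAC-3 list, *insl3* at 75.5% (TAC-1) against 42.1% (TAC-3). *Sox9* and *hsd3b1* had a peak in TAC-1 only, and *gsdf*, *star* and *fshr* in neither. Of 8 cell maintenance genes, 6 had a peak in TAC-1, 5 in the matched TAC-1 list and 7 in TAC-3. *Tbp*, *hprt1*, *rpl13*, *polr2a*, *ubb* and *pgk1* had one in both, *rps18* in TAC-3 only and *gapdh* in neither. Of 8 genes of muscle, neurons, blood and liver, 5 had a peak in TAC-1, 3 in the matched TAC-1 list and 4 in TAC-3. Of the 8, 3 had a peak in both testes, against 50.7% of all protein-coding genes and 16 of 16 meiotic prophase genes. The 3 were *myl1* and the neuronal transcription factor genes *neurod1* (highest 13.0% in TAC-1 against 51.0% in TAC-3) and *neurog1* (20.8% in TAC-1 against 70.0% in TAC-3). *Myog* and *ptprc* had one in TAC-1 only, *tf* in TAC-3 only, and *myod* and *fga* in neither. Some genes of other tissues thus had a peak at a boundary too, so that a peak alone did not mark a gene of this tissue.

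H3K36me3 peaks of the same testis were more frequent at private than at shared H3K4me3 peaks. H3K36me3 is the trimethylation of lysine 36, found over the bodies of transcribed genes and, with H3K4me3, at sites bound by PRDM9. In TAC-1, 40.7% of shared (40.2% to 41.2%) and 74.5% of private peaks (74.3% to 74.8%) overlapped one. In TAC-3, 3.69% of shared (3.5% to 3.89%) and 21.7% of private peaks (21.0% to 22.4%) did. With H3K36me3 peaks of the other testis, it was 5.83% of shared and 12.9% of private TAC-1 peaks. For TAC-3 peaks the order turned, with 35.0% of shared and 6.27% of private ones. In TAC-1 the higher share at private peaks was thus not particular to H3K36me3 of the same testis. The H3K36me3 lists differed in length, with 162044 peaks in TAC-1 (5.58% of the chromosome length) and 40535 in TAC-3 (3.15%). Levels from the whole lists therefore cannot be set against each other between the testes. With H3K36me3 of the same testis, the difference between shared and private was present in both testes at matched length. It was 44.8% and 89.9% of matched TAC-1 peaks, and 2.82% and 14.6% of TAC-3 peaks classed against them. With only the TAC-1 H3K36me3 list shortened, to 40535 peaks, the difference was smaller, at 18.4% of shared and 24.1% of private TAC-1 peaks. With both TAC-1 lists shortened it was 24.8% of shared and 56.5% of private matched TAC-1 peaks. Over all matched TAC-1 peaks it was then 40.5%, against 8.64% of all TAC-3 peaks with the TAC-3 H3K36me3 list. The shortened TAC-1 H3K36me3 list covered 2.25% of the chromosome length. The part of read depth in this difference between the testes was not tested.

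Private peaks lay inside genes more often, where H3K36me3 is also found, so the comparison was repeated by place. At gene boundaries, 19.7% of shared and 74.6% of private TAC-1 peaks had H3K36me3, and 1.24% of shared and 7.11% of private TAC-3 peaks. Inside genes and away from boundaries, it was 57.7% of shared and 80.2% of private TAC-1 peaks, and 10.4% of shared and 38.4% of private TAC-3 peaks. Outside genes the order was reversed in TAC-1, with 67.7% of shared and 65.3% of private peaks, but not in TAC-3, with 2.81% of shared and 19.9% of private peaks. With the matched TAC-1 list it was 81.3% of shared and 88.9% of private peaks there.

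**Figure D5:**
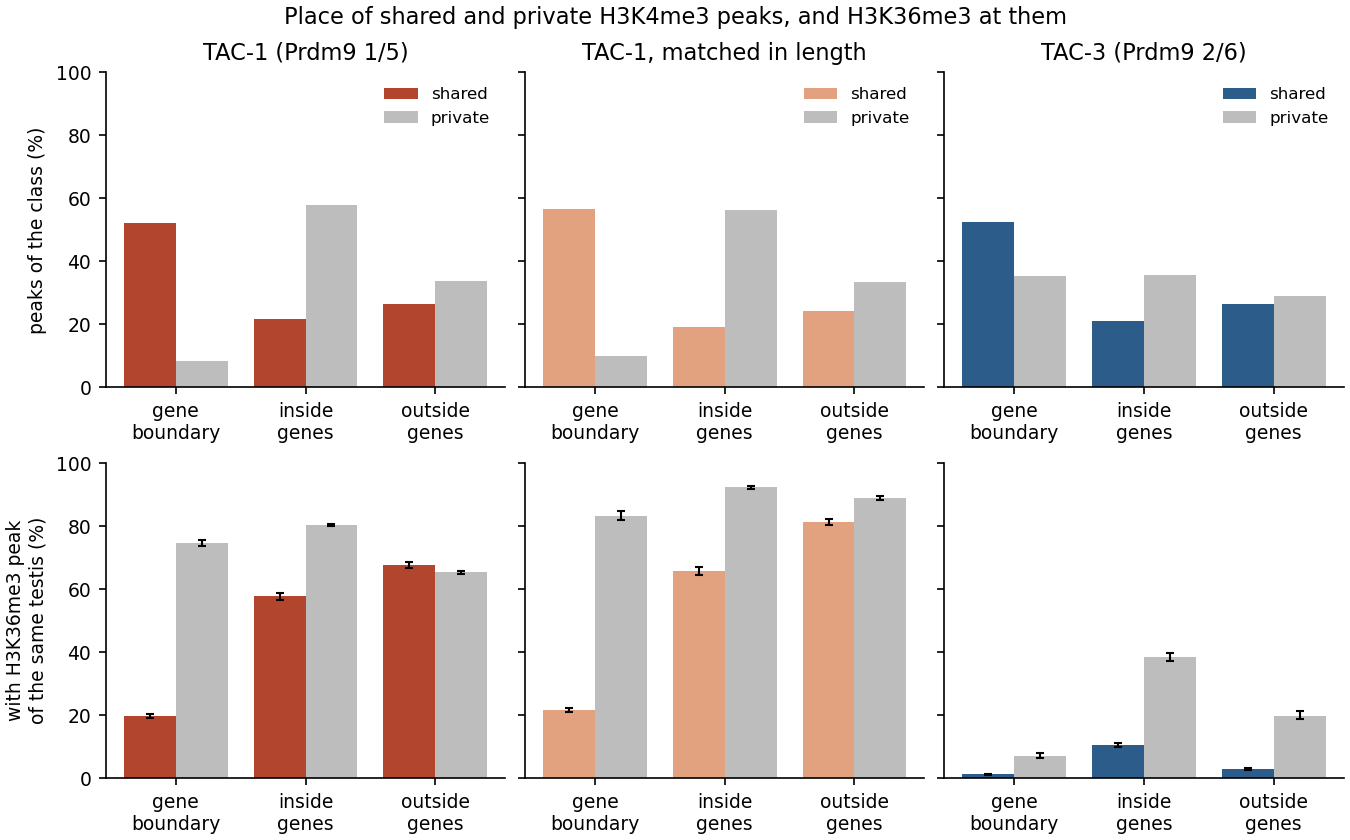
Upper panels: percentage of shared (coloured) and private (grey) H3K4me3 peaks within 1 kb of a gene boundary, inside genes away from boundaries and outside genes, for TAC-1, for TAC-1 matched in length and for TAC-3. Lower panels: percentage of those peaks that overlap an H3K36me3 peak of the same testis, with 95% Wilson intervals over peaks. Private peaks are at gene boundaries in 8.40% of cases in TAC-1 against 35.2% in TAC-3, and more often carry H3K36me3 in every place except outside genes in the whole TAC-1 list.

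Private peaks overlapped DMC1 hotspots of the same individual and of RT-52 more often than shared peaks did. The hotspots were called by the authors as sites of meiotic DSBs, and were reduced to their central 400 bp. The paper holds that hotspots common to TAC-1 and TAC-3 may be artifacts, because they lack the strand asymmetry of DSB sites. They were kept here, and their part in the counts below was not tested. The TAC-1 list held 616 sites, the TAC-3 list 209 and the RT-52 list 1924, so that only a small share of the H3K4me3 peaks could meet one. In TAC-1, hotspots of the same individual were met by 21 of 36752 shared peaks (0.0571%, 0.0374% to 0.0873%) and 200 of 116913 private peaks (0.171%, 0.149% to 0.196%). In TAC-3 they were met by 13 of 36644 shared (0.0355%, 0.0207% to 0.0607%) and 40 of 13904 private peaks (0.288%, 0.211% to 0.391%). For hotspots of the other individual the counts were low and the order was not the same. TAC-3 hotspots were met by 6 shared (0.0163%, 0.00748% to 0.0356%) and 8 private TAC-1 peaks (0.00684%, 0.00347% to 0.0135%), and TAC-1 hotspots by 10 shared (0.0273%, 0.0148% to 0.0502%) and 3 private TAC-3 peaks (0.0216%, 0.00734% to 0.0634%), with intervals that overlapped in both cases. Hotspots of RT-52, which was at stage IV and has 1 *Prdm9* allele in common with each, were met by 0.215% of shared and 0.381% of private TAC-1 peaks, and by 0.308% of shared and 2.35% of private TAC-3 peaks. With the matched TAC-1 list it was 0.212% of shared and 1.19% of private TAC-1 peaks.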

How the data were processed

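H3K4me3 peaks came from the deposited lists of TAC-1 and TAC-3, each made by the authors from 2 replicates: reads were aligned with BWA (0.7.17-r1188) through nf-core/chipseq, narrow peaks were called with MACS2 (2.2.7.1) against input, peaks within 1 kb were merged with bedtools, and regions found in both replicates at 25% overlap were kept. The value of each peak is the authors' score, averaged over merged peaks, per the study's methods. Positions are USDA_OmykA_1.1. The mapped depth of the libraries is not in the lists.

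Lists were compared with pandas 2.3.3 and numpy 2.4.6 at a minimum overlap of 1 bp, checked against bedtools 2.31.1 on 6000 simulated intervals. Sequence identifiers were matched to chromosomes through the RefSeq gene table (72772 genes, 54080 on chromosomes), the largest position standing in for the length (2232 Mb in total). Sites were named on assembled chromosomes only: the highest and the widest peak of each list, the 5 highest private peaks of each and the 5 shared sites of best mean rank. Extreme chromosomes and windows and every annotated gene of the marker lists were also named. Members and lists were chosen with earlier results of these data known. Alternatives concerned list length, overlap, peak extent, score, joining, chromosome ends and boundary distance. DNA motifs and the signal between peaks were not analysed here.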

Additional observations from a re-analysis of the deposited data

How the results depend on the processing

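Shares, widths and positions depended on the peaks used. The share of TAC-1 peaks shared was 23.9% and became 50.4% at matched length, 20.5% with a reciprocal overlap of 25%, 14.7% with the central 200 bp of peaks, 24.7% in the upper 50% of each list by score and 25.9% in the upper 10%. For TAC-3 peaks it was 72.5%, and 50.6%, 62.5%, 44.8%, 74.8% and 78.7% under the same settings. The upper 10% was chosen after seeing the data, as was the restriction to chromosomes (23.8% in TAC-1 and 72.7% in TAC-3). Median widths became 743 bp in TAC-1 at matched length, and 613 bp (TAC-1) and 1052 bp (TAC-3) in the upper 50% by score. The density in the chromosome ends relative to their length, 0.84 in both testes, was 0.88 in TAC-1 at matched length, 0.87 in TAC-1 in the upper 50% by score, 0.88 in TAC-3 with the outer 5% at each end, and 0.88 in TAC-1 and 0.88 in TAC-3 with the outer 20%. Joining peaks less than 1 kb apart changed nothing, because the lists hold none.

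Private peaks were at gene boundaries less often in TAC-1 than in TAC-3 at 500 bp (4.64% in TAC-1 and 29.7% in TAC-3) as at 2 kb (15.5% in TAC-1 and 41.2% in TAC-3). The lengths of the H3K36me3 list were alternatives added after seeing the data. No replicate could be left out, since each list combines both. No paired analysis was possible because the lists carry no replicate and no result comes from a test. The lists hold no read depth, so that the part of depth in the longer TAC-1 list was not tested, and matching the lists in length does not replace matching them in depth. Nor was the part of the input libraries tested, of which there is 1 of TAC-1 and 2 of TAC-3.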
